A study of Homo sapiens with 12 samples.

Results

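The genes described here are 9 that handle iron in human cells, chosen by symbol from the 23292 gene symbols listed in the results tables. They are *TFRC*, *SLC11A2*, *SLC40A1*, *FTH1*, *FTL*, *NCOA4*, *ACO1*, *IREB2* and *HMOX2*, and all 9 were found. RNA had been sequenced from HEK293T cells, an established human embryonic kidney line that the growth protocol calls HEK293, after 6 h with DMSO vehicle or with 10 µM of AA263, AA263yne or AA263-5. Each of these groups had 3 samples, 12 in all, and all samples were labelled as wild type. The value used for each gene is the authors' mean normalised value over all 12 samples, of which 9 were treated with a compound. It is 1 pooled number per gene, so it carries no SD. No difference between a compound and vehicle is given, and whether the compounds changed the iron genes was not tested.

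Cells take up transferrin-bound iron through the transferrin receptor, move it out of endosomes through a divalent metal transporter, store the excess inside ferritin shells and release it through ferroportin. The iron regulatory proteins adjust this balance after transcription. When iron is scarce they bind a hairpin, the iron responsive element, which blocks translation when it lies ahead of the coding sequence and protects the transcript from decay when it lies behind it. Iron chelators are therefore known to raise the transcript of *TFRC*, while ferritin is mainly regulated at the level of protein.

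The iron responsive element is shown first because it is the feature through which several of these transcripts, those of ferritin and *TFRC* among them, are known to be controlled. The letter C, then any 5 bases, then the loop CAGTGN were searched in the sense strand of GENCODE 44 transcripts of GRCh38. The 5 bases ahead of the loop had to pair with the 5 bases after it, and G with T was allowed. Of the 9 genes, 4 held such a match in a coding transcript, against 1.76% of the 15212 listed genes with a coding transcript (267 genes). The motif is known from the transcripts of iron genes such as these, so this share is a description and no test. These 4 genes were *FTH1*, *FTL*, *SLC40A1* and *TFRC*. Each site is written 5′ to 3′ in DNA letters, with the loop in capitals.
FTH1: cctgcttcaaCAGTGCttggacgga
FTL: cttgcttcaaCAGTGTttggacgga
SLC40A1: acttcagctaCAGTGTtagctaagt
TFRC site 1: ttatcggaagCAGTGCcttccataa
TFRC site 2: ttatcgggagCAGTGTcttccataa
TFRC site 3: gtatcggagaCAGTGAtctccatat
TFRC site 4: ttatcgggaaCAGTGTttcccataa

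The sites of the ferritin and ferroportin genes lay in the 5′ UTR, and those of *TFRC* in the 3′ UTR. The *FTH1* site is at chr11:61967576-61967600 on the minus strand, with its loop starting at base 45 of the MANE transcript, the reference transcript agreed between annotation groups. The *FTL* site is at chr19:48965337-48965361 on the plus strand, with its loop at base 39. In *SLC40A1* the site is at chr2:189580663-189580687 on the minus strand, with its loop at base 110. The 4 *TFRC* sites lie on the minus strand at chr3:196050981-196051005, chr3:196050577-196050601, chr3:196050512-196050536 and chr3:196050465-196050489. Their loops start at bases 3301, 3705, 3770 and 3817 of a transcript of 5012 bases. A match describes these letters and does not show that a protein binds there. A hairpin with another loop, or with a stem that pairs in another way, would not be found by this search.

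*SLC11A2*, the divalent metal transporter, held a match with 4 of 5 stem pairs in its 3′ UTR, at chr12:50988271-50988295 on the minus strand. Its letters differ from the *TFRC* sites in the stem, as the next line shows.
SLC11A2: ccatcagagcCAGTGTgtttctatg
With 4 of 5 pairs allowed, *ACO1* and *IREB2* also held a match in the 3′ UTR, and 7 of the 9 genes had one. That looser form was found in 12.9% of the 15212 listed genes with a coding transcript. *NCOA4* and *HMOX2* held neither form.

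**Figure D1:**
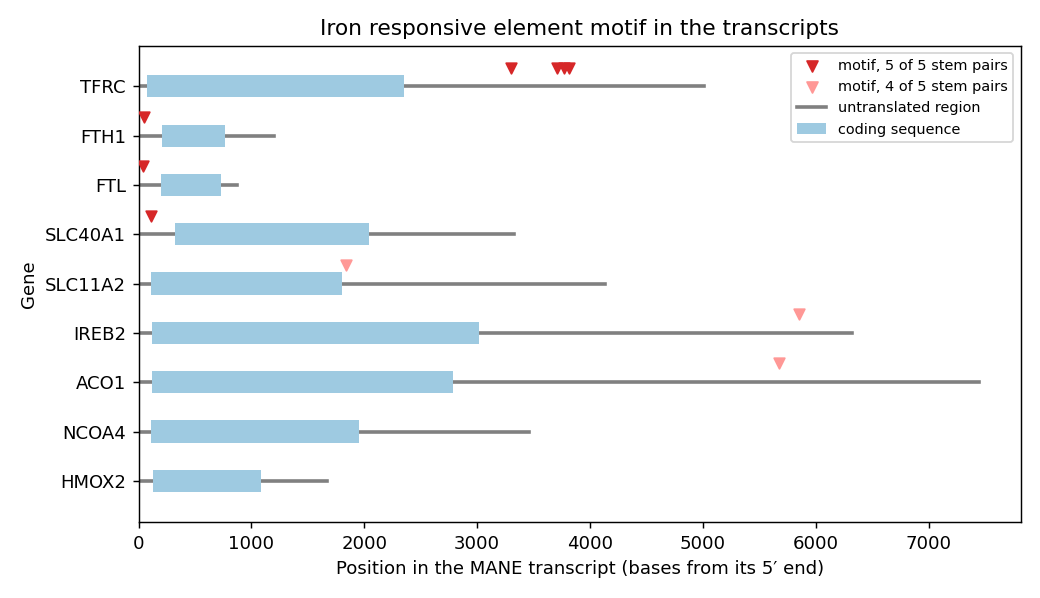
The MANE transcript of each gene is drawn to scale in bases from its 5′ end, with the coding sequence as a bar, the untranslated regions as a line and motif matches as triangles. Matches with all 5 stem pairs sit ahead of the coding sequence in FTH1, FTL and SLC40A1 and behind it in TFRC, which has 4.

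The cells expressed 8 of the 9 iron genes at a listed mean of at least 1000, a level reached by 25.9% of all listed symbols. The exception was *SLC40A1*, at 66.0. The median of the 9 genes was 3009, against 571 over the 15638 symbols with a mean of at least 10. Together the 9 genes made up 0.0888% of the summed value of all symbols, 36.6 M. The genes were chosen for their role and known to be measured, so their place among all genes is a description.

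The ferritin genes were the highest of the 9 after division by length. *FTL*, which encodes the ferritin light chain and lies on chromosome 19 from 48965309 to 48966879 of GRCh38, had a listed mean of 7231. That placed it at percentile 94.3 of symbols with a mean of at least 10. *FTH1*, the heavy chain that oxidises iron for storage, lies on chromosome 11 from 61959718 to 61967634 and had a listed mean of 4423, at percentile 89.4. Per kilobase of the longest annotated transcript, the level was 8302 for *FTL* and 3677 for *FTH1*. The light chain was thus 2.26 times the heavy chain per kilobase, 1.63 times as listed and 1.48 times with the median transcript length. No spread between samples was used here to set against these ratios.

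Near-identical copies could share reads with the ferritin genes. GENCODE 44 names 25 pseudogenes of *FTH1* and 16 of *FTL*, and 0 of them was found among the listed symbols. Pseudogenes of any gene were rare there, with 42 such symbols among all 23292, so this absence is not particular to ferritin. How the authors' counting shared reads between such copies is not given in the sources used here. Ribosomal protein genes, which also have many copies, were used for comparison. The 26 of them with at least 20 named pseudogenes had a median listed mean of 9617 (range 126 to 144742), and the 33 with fewer than 10 had a median of 21591 (range 171 to 115949). The ranges, each set by its lowest and highest gene, overlapped, while the median was lower in the group with more pseudogenes. Across the 77 ribosomal protein genes the listed mean and the number of pseudogenes had a Spearman rho of -0.34, as a description across genes. The part of shared reads in the ferritin values was not tested.

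*NCOA4*, the receptor that carries ferritin to the lysosome for degradation, was the second of the 9 genes as listed, with a mean of 6233. Per kilobase it came after both ferritin genes, at 1787, which is 0.486 times the level of *FTH1*. It lies on chromosome 10 from 46005088 to 46030623, and GENCODE 44 names 4 pseudogenes for it.

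Of the 9 genes, both uptake genes, *TFRC* and *SLC11A2*, lay above the export gene *SLC40A1*. *TFRC*, the transferrin receptor on chromosome 3 from 196012511 to 196082153, had a listed mean of 5283, at percentile 91.4. Per kilobase of its longest transcript, 6872 bases with a retained intron, the level was 769. Per kilobase of its MANE transcript it was 1054. *SLC11A2*, on chromosome 12 from 50979401 to 51028566, had a listed mean of 1076 and a level of 260 per kilobase. The receptor was 2.95 times the transporter per kilobase and 4.91 times as listed. With the median transcript length the order turned and the ratio was 0.680. That length is 652 bases for *SLC11A2*, shorter than its coding sequence of 1686 bases.

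*SLC40A1* encodes ferroportin, the iron exporter, and lies on chromosome 2 from 189560590 to 189583758. Its listed mean was 66.0, at percentile 20.8 of symbols with a mean of at least 10, and its level per kilobase was 19.8. It was the lowest of the 9 genes under every measure of length tried. *TFRC* was 80.0 times *SLC40A1* as listed and 38.8 times per kilobase. The ratio of *TFRC* to *SLC40A1* was 12.1 with the median transcript length. For *SLC40A1* that length is 712 bases, shorter than its coding sequence of 1716 bases. *SLC11A2* exceeded *SLC40A1* 13.1 times per kilobase.

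The iron sensors had close listed means. *ACO1* encodes iron regulatory protein 1, which is an aconitase when it holds an iron-sulfur cluster, and lies on chromosome 9 from 32384603 to 32454769. Its listed mean was 3009, at percentile 83.8. *IREB2*, iron regulatory protein 2, lies on chromosome 15 from 78437431 to 78501453 and had a listed mean of 2846, at percentile 82.8. Per kilobase the order turned, with 404 for *ACO1* and 450 for *IREB2*, a ratio of 0.898. With the median transcript length that ratio was 0.215, but for *IREB2* that length, 736.5 bases, is shorter than its coding sequence of 2892 bases. They are neighbours in the order as listed and per kilobase of the longest or MANE transcript, and not with the median length. No spread was used to separate them.

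*HMOX2*, the constitutive heme oxygenase that frees iron from heme, lies on chromosome 16 from 4474690 to 4510347. It had a listed mean of 2315, at percentile 79.0, and a level of 1213 per kilobase. Its inducible relative *HMOX1* had a listed mean of 6296, which was 2.72 times *HMOX2* as listed and 3.06 times per kilobase. The pooled mean of an inducible gene mixes 3 vehicle samples with 9 treated ones, so this is not the ratio in untreated cells.

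**Figure D2:**
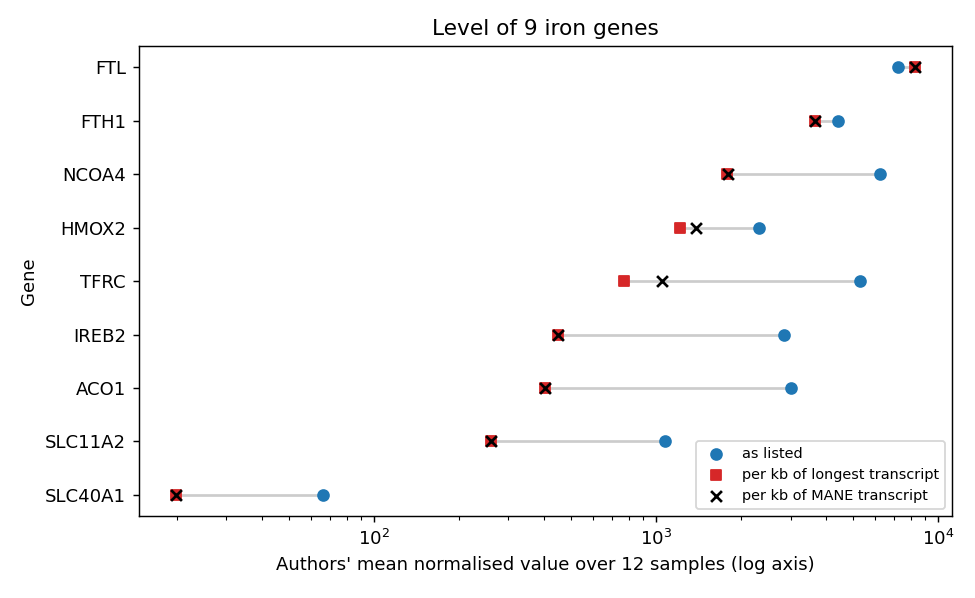
Circles give the authors' mean normalised value over 12 samples for each gene as listed, squares the value per kilobase of the longest transcript and crosses per kilobase of the MANE transcript, on a log axis. FTL is highest and SLC40A1 lowest on all 3 scales, and TFRC lies above FTH1 and HMOX2 as listed and below both per kilobase.

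Per kilobase of the longest transcript, the order from highest to lowest was *FTL*, *FTH1*, *NCOA4*, *HMOX2*, *TFRC*, *IREB2*, *ACO1*, *SLC11A2* and *SLC40A1*. The step from *SLC11A2* to *SLC40A1*, 13.1 times, was larger than the 2.95 times between *TFRC* and *SLC11A2*. Whether the listed means had already been divided by length was not settled. The methods name RPKM, which divides by length. Across 10330 genes with a mean of at least 100, the listed mean and the length of the MANE transcript had a Spearman rho of -0.07. The 2068 genes with the shortest transcripts had a median of 1403 and the 2066 with the longest 1079. For that reason both scales are given for each gene.

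**Figure D3:**
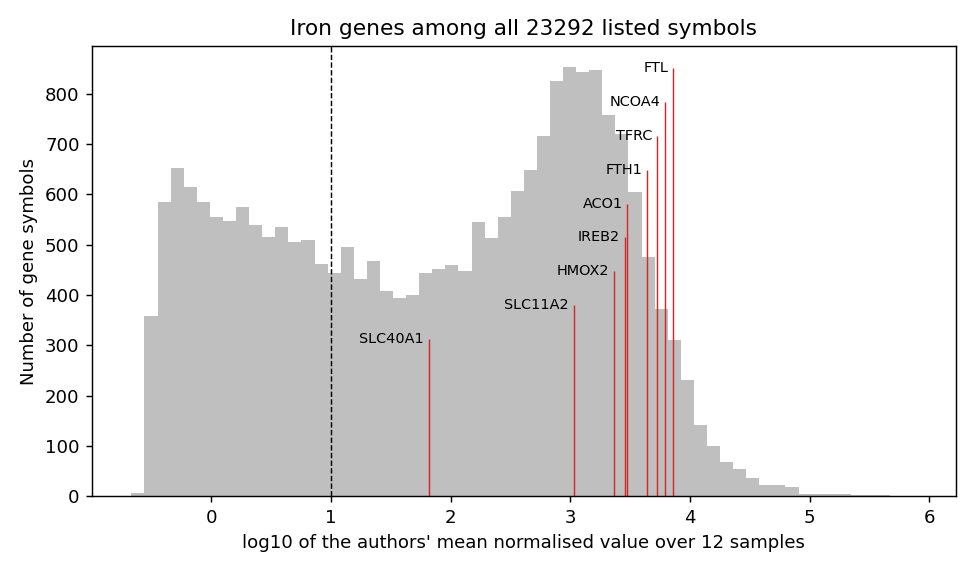
The histogram shows the log10 of the authors' mean normalised value for all 23292 listed symbols, with the 9 iron genes as vertical lines and a mean of 10 as the dashed line. The heights of the lines only separate the names; 8 genes lie at or above a listed mean of 1000 and SLC40A1 lies at 66.0.

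Of 38 other genes of iron uptake, export, heme and iron-sulfur cluster assembly, 34 were matched to a value by symbol. *HJV*, *FTMT*, *HEPH* and *ALAS2* were looked up and not matched, so their levels were not analysed here. The listed mean was at least 100 in 27 of the 34, against 11642 of all 23292 listed symbols, and their median was 937. The highest were the iron chaperones *PCBP2* (12055) and *PCBP1* (11118). They were followed by *HMOX1*, by *NUBP2*, a cytosolic iron-sulfur assembly factor (3865), and by *BOLA2* (3829), whose reads may be shared with its near-identical copy *BOLA2B*. *FBXL5*, which marks the iron regulatory proteins for degradation when iron is plentiful, had a listed mean of 1043.

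Of the 34 genes, 4 had a listed mean under 10, and they are named for that low value. Hepcidin, *HAMP*, the liver hormone that removes ferroportin from the cell surface, had a listed mean of 0.390. The second transferrin receptor *TFR2* had 0.568, *HFE*, the gene altered in hereditary hemochromatosis, 1.69 and transferrin itself, *TF*, 2.22.

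**Figure D4:**
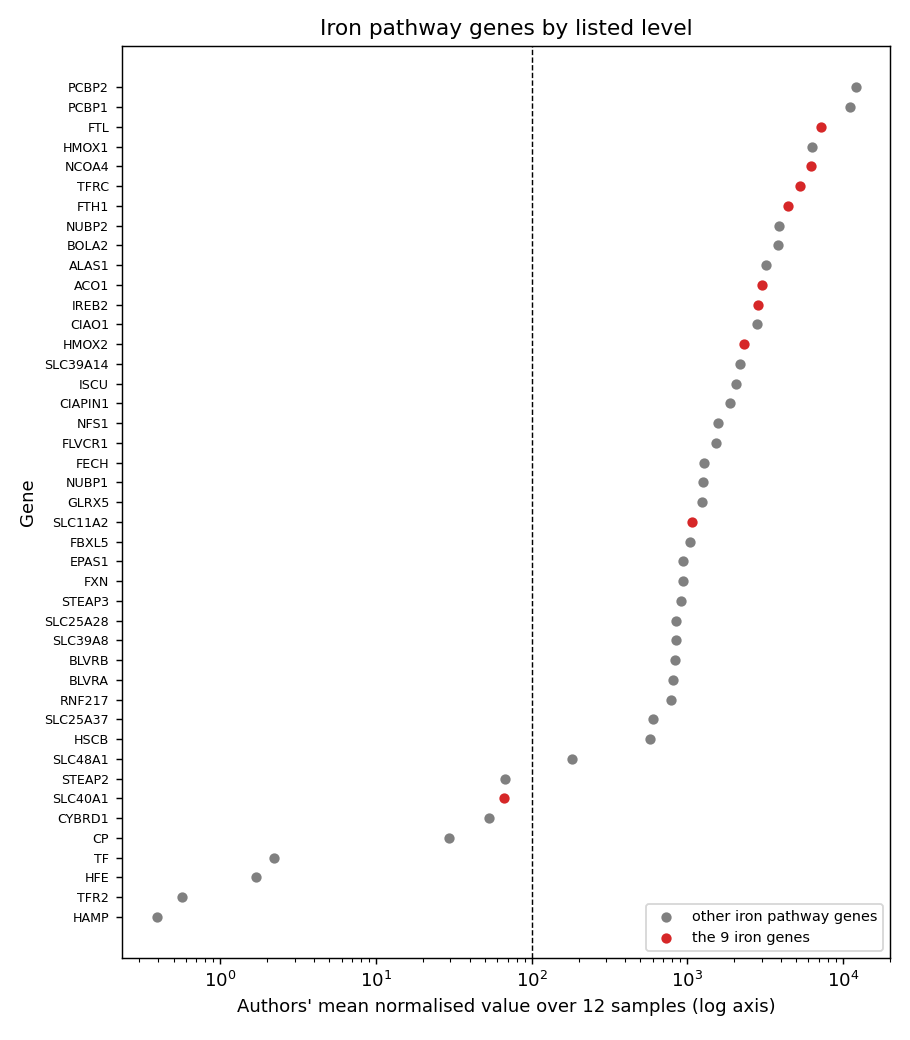
Points give the authors' mean normalised value over 12 samples on a log axis for the 9 iron genes in red and 34 other iron pathway genes in grey, with a mean of 100 as the dashed line. SLC40A1 lies between STEAP2 and CYBRD1 below that line, and TF, HFE, TFR2 and HAMP lie below 10.

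Levels of cell type markers are given beside the labelled cell line. The lists were chosen with earlier results of these data known, so they are no test of the label. All 5 markers of the line (*VIM*, *KRT8*, *KRT18*, *NEFL* and *NEFM*) had a listed mean of 1488 or more. For iron-handling cell types, the summed listed mean was 108 over 4 of 7 red cell markers, 9.95 over 5 of 5 hepatocyte markers and 214 over 4 of 5 macrophage markers, and the remaining markers were looked up and not matched to a value. Of 4 markers of duodenal enterocytes, which absorb iron, 1 was matched, *CYBRD1*, at 52.9, and *VIL1*, *FABP2* and *HEPH* were not. Most of the macrophage sum came from *CD68* (203), which many cell types express, while *PTPRC* was at 0.544.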

How the data were processed

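RNA was sequenced from 12 samples of HEK293T cells. The authors aligned reads with SeqManPro to GRCh38.p7, quantified genes with ArrayStar and QSeq and fitted all samples with DESeq2. The submitters' processing notes give DESeq2 version 1.40.1 and also list GRCh37. The deposited signal averages the 12 samples after the authors' scaling by size factors, and was identical in the 3 tables. Their other columns hold the authors' own log2 fold changes, standard errors, Wald statistics and p-values for each compound, and were not used. Hence there was no test, and the depth and spread of single samples were not computed. The methods name RPKM as the fitted unit.

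Each mean was divided by the longest transcript of its symbol in GENCODE 44, whose coordinates (GRCh38) are printed. A length was matched for 85.5% of symbols with a mean of at least 10, over which percentiles were computed. The motif scan was run on simulated sites built to the same pattern that it searches. It found 200 of 200 planted sites and 0 of 200 with a broken pair. That checks the code and does not show how many real elements the pattern misses. Python 3.11.15, pandas 2.3.3 and matplotlib 3.10.9 were used. The 9 genes are all named; of the other iron genes, those with the 5 highest means, those under 10 and some relatives or partners. Some results are not reported here. *CD68*, *PTPRC*, *STEAP2* and *CYBRD1* were named after their values were seen. Genes and lists were chosen with earlier results of these data known.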

Additional observations from a re-analysis of the deposited data

How the results depend on the processing

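The order of the 9 genes per kilobase rested on the length used. With the median transcript length 3 genes kept their place and with no division by length 4 did, while with the MANE transcript, an alternative chosen after seeing the data, all 9 did. The median was taken over all annotated transcripts, short ones included. For *IREB2*, *SLC40A1* and *SLC11A2* it was shorter than the coding sequence of the MANE transcript, so the order under it is a weak guide. The 3 tables gave the same value for all 9 genes. *FTL* stayed first and *SLC40A1* last under each length. With every symbol ranked, or only those with a mean of at least 100, 8 genes again lay above the median. Of the other iron genes, 16 had a mean of at least 1000, against 27 at 100 and 30 at 10. The motif was found in 7 genes with 4 of 5 stem pairs. Adding pseudogene values to the ferritin genes was not run, since 0 such symbols were found. No paired analysis was possible because only a mean over all samples was used. The precision of each mean is unknown here, and no interval was computed.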
